A study of Homo sapiens with 60 samples.

Results

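The aminoacyl-tRNA synthetases described here are 35 genes, taken by gene name from the 62703 genes of a count table: 19 that encode cytosolic enzymes and 16 that encode mitochondrial enzymes, whose names end in 2. They were followed in 1321N1, an astrocyte-derived human astrocytoma cell line kept as an established culture. Cells were exposed to 2.55 µM sodium metaarsenite (arsenic), 2.3 µM cadmium chloride (cadmium), or 20 µM mercury chloride (mercury), or were left non-treated, and RNA was taken after 1.5, 3, 6, 12, or 24 h, with 3 libraries in each of the 20 groups. Non-treated cells were harvested at every time point, and each metal was compared with the ones of its own hour. All groups shared the same cell line and full growth medium, and the doses were set by the study to be equally toxic rather than equal in concentration. The deposited description calls the 3 libraries of a group technical, so p values may cover only the spread between these libraries and not that between independent cultures. As these were bulk RNA samples, a lower level in each cell and a lower number of cells with the RNA cannot be told apart. Total counts per library ranged from 2215276 to 4404609 (median 3291417), and 3 counts were worth 0.682 to 1.36 CPM (counts scaled to library size), depending on the library. Among glial markers, VIM (median 4410 CPM in non-treated libraries), CD44 (383 CPM), and SOX9 (73.1 CPM) were present, whereas the astrocyte markers GFAP, S100B, AQP4, and ALDH1L1 had a median of 0 CPM, so the cells carried little of the RNA that defines mature astrocytes.

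Aminoacyl-tRNA synthetases join each amino acid to its matching tRNA and so supply the ribosome with its substrates. Most amino acids have a cytosolic enzyme and a separate mitochondrial enzyme, both encoded in the nucleus, although GARS1 and KARS1 each give rise to a cytosolic and a mitochondrial form. Several cytosolic enzymes are joined in a multi-synthetase complex, and many of their genes are known targets of ATF4, a transcription factor made when amino acids run short or proteins misfold. ATF4 binds with C/EBP proteins to a composite site, the C/EBP-ATF response element.

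The letters TGATGNAA, the core of that element, were searched on both strands of RefSeq promoter windows (GRCh38.p14). A window ran from 250 bases before to 50 bases after a RefSeq start, and the first window listed was used for each member. The windows of 6 of the 16 cytosolic genes that had one (37.5%) and of 1 of 14 mitochondrial genes (7.14%) held a match, against 1270 of 35116 windows in all (3.62%). The windows in all were limited neither to the first of each gene nor to genes tested here, so these sets are unlike. No window was at hand for LARS1, VARS1, YARS1, AARS2, and VARS2. The matching stretches are shown because 6 of the 11 cytosolic genes that rose at 24 h carry one, and each is printed 5′ to 3′ on the strand of its gene, with the match in capitals.
AARS1, chr16:70289675-70289704, minus strand: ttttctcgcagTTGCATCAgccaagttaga
CARS1, chr11:3057407-3057436, minus strand: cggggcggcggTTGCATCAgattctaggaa
IARS1, chr9:92293692-92293721, minus strand: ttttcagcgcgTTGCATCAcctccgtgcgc
MARS1, chr12:57488053-57488082, plus strand: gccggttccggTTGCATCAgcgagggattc
NARS1, chr18:57621804-57621833, minus strand: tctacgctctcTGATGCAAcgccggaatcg
TARS1, chr5:33440956-33440985, plus strand: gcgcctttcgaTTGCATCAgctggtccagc
YARS2, chr12:32756076-32756105, minus strand: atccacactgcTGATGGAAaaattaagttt
All 6 cytosolic matches had the letters TGATGCAA on one strand or the other, whereas the match of YARS2 read TGATGGAA. In 5 of the cytosolic genes the match lay close to the RefSeq start: its first base fell 2 bases before it in CARS1, 4 in MARS1, and 13 in IARS1, and 2 bases after it in TARS1 and 14 in NARS1. That of AARS1 lay 187 bases before the start and that of YARS2 197 bases before it. Positions are counted from the RefSeq start of each window, which can differ from the start of the GENCODE gene spans given below. The GENCODE span of MARS1 (plus strand) begins at chr12:57475445, so its match lies well inside that span. Those of CARS1 (chr11:3057613, minus strand), IARS1 (chr9:92293854, minus), NARS1 (chr18:57622213, minus), and TARS1 (chr5:33440696, plus) also begin before the RefSeq start used. Their matches lie inside these spans too, so closeness to the start depends on the annotation. The span of AARS1 (minus strand) begins at chr16:70289707, so its match lies just after that start. A match is a description of the letters and does not show that a factor binds there.

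Reads were taken from the 3′ end of each transcript, so that their number does not grow with gene length and CPM can be set side by side between genes. Over the 15 non-treated libraries, median levels of the cytosolic synthetases ran from 27.8 CPM (WARS1, tryptophan) to 376 CPM (FARSA, the alpha subunit of the phenylalanine enzyme), with a median of 117 CPM over the 19 genes. Next to FARSA stood RARS1 (353 CPM, arginine) and KARS1 (302 CPM, lysine), and the libraries of these 3 genes overlapped, at 300 to 464, 296 to 406, and 251 to 347 CPM. The mitochondrial enzymes were lower, from 5.5 CPM (MARS2 and PARS2) to 92 CPM (IARS2), with a median of 20.2 CPM over the 15 genes detected. VARS2, the mitochondrial valine enzyme, had 0 counts in all 60 libraries. Its last 400 exonic bases lie wholly (100%) within exons of another gene on the same strand, and the authors' counting drops reads that fall on several genes, so its level cannot be judged from these counts. For SARS2, 65.5% of those bases lie in another gene, and parts of the 3′ ends of TARS2 (21.7% of 50-base stretches), RARS2 (17.9%), LARS1 (8.55%), EARS2 (2.28%), and YARS2 (0.855%) occur in other genes, so that their counts are less certain. For the remaining members, no such stretch was found.

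Of the 35 genes, 34 had sufficient counts to be tested, VARS2 being the exception. Upon treatment with arsenic, 11 of the 19 cytosolic synthetases were up-regulated at 24 h (6.54% of all tested genes were), namely AARS1, CARS1, EPRS1, GARS1, IARS1, MARS1, NARS1, SARS1, TARS1, WARS1, and YARS1. Mercury, compared with the same 3 non-treated libraries, gave each of these genes as up-regulated too (13.9% of all genes were). With cadmium, 1 cytosolic gene (YARS1) was up-regulated at 24 h (1.56%) and 5 were at 12 h (5.19%). None of the 15 tested mitochondrial genes with names ending in 2 was up-regulated by any metal at 24 h. The glycine enzyme GARS1 rose 2.33-fold with arsenic and 2.53-fold with mercury at 24 h, and the tryptophan enzyme WARS1 rose 2.83-fold and 2.07-fold. A gene was counted as changed at a Benjamini-Hochberg adjusted p under 0.05 in edgeR's quasi-likelihood test, fitted over 12341 genes.

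The first cytosolic genes to be called higher were so at 3 h with mercury, at 6 h with arsenic, and at 12 h with cadmium. At 3 h, 2 genes (CARS1 and GARS1) were higher with mercury, against 1.39% of all tested genes, followed by 9 of 19 at 6 h (background 4.49%), 11 at 12 h (8.89%), and 11 at 24 h (13.9%). With arsenic, 1 gene was higher at 6 h (0.608% of all genes), 10 at 12 h (2.37%), and 11 at 24 h (6.54%). With cadmium, 0 were higher at 6 h (1.60%), 5 at 12 h (5.19%), and 1 at 24 h (1.56%). At 1.5 h, 0 members were called in either direction with any metal, and few genes were at all: 0.0648% higher and 0.0081% lower with arsenic, 0.478% and 0.0891% with mercury, and 0% with cadmium. At 3 h, 0 members were called with arsenic (0.122% of all genes higher, 0.0162% lower) or cadmium (0.203% and 0%), and DESeq2 likewise called 0 cytosolic genes higher in these 5 comparisons. At an unadjusted p under 0.05, 6 and 2 cytosolic genes passed for arsenic at 1.5 and 3 h, 5 and 1 for cadmium, and 1 for mercury (at 1.5 h). TARS1 passed with arsenic at 1.5 h when arsenic replicate 3 was left out (LFC 0.41, adjusted p = 0.0214). The single call with arsenic at 6 h, CARS1, did not remain when any 1 of the 6 libraries compared was left out (highest adjusted p 0.122 without non-treated replicate 2). Further calls near the threshold were lost in fits with 1 library fewer, mostly with similar LFCs. TARS1 with arsenic at 12 h (LFC 0.32) was lost in 5 of 6 such fits (LFC 0.25, adjusted p = 0.253 without non-treated replicate 3). NARS1 with cadmium at 12 h (0.25) was lost in 5 of 6 (0.23, 0.122 without cadmium replicate 2). With mercury, WARS1 at 6 h (0.51) was lost in 5 of 6 (0.44, 0.178 without mercury replicate 2), EPRS1 at 6 h (0.31) in 2 of 6 (0.28, 0.0649 without non-treated replicate 1), and AARS1 at 12 h (0.47) in 2 of 6 (0.39, 0.0908 without mercury replicate 3). At 24 h with arsenic, all 13 cytosolic calls held in every such fit.

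**Figure D1:**
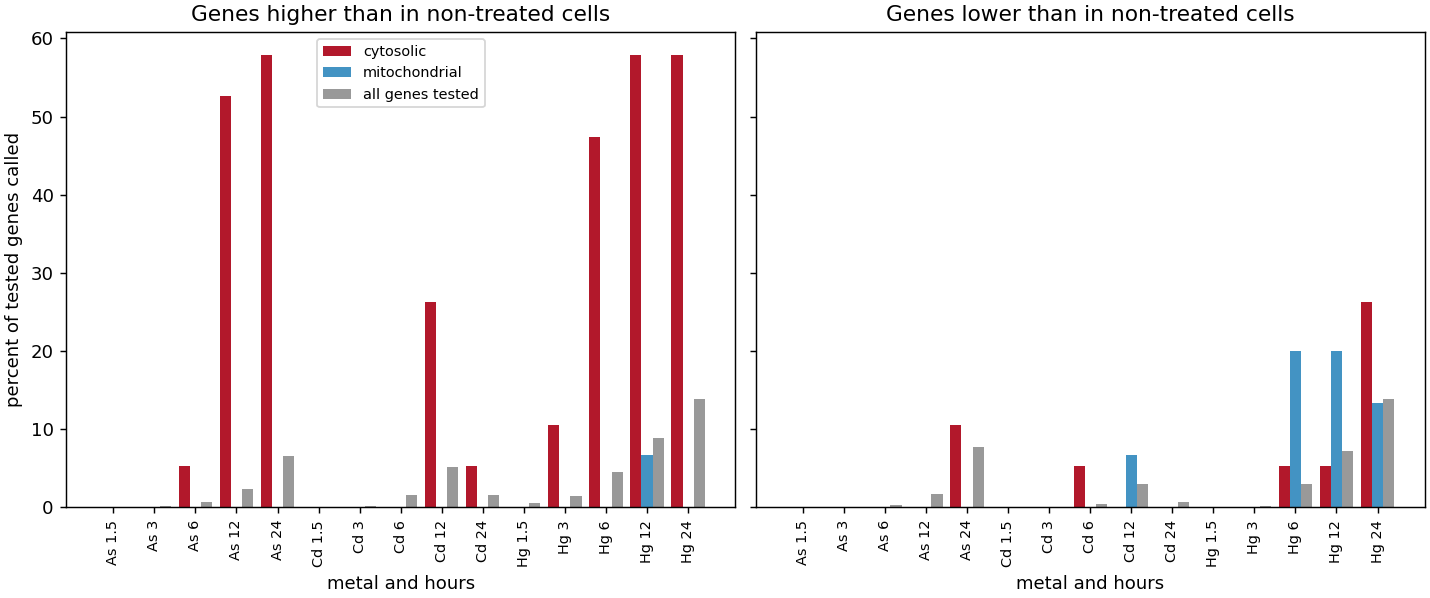
Percent of tested genes that were higher (left) or lower (right) than in non-treated cells at the adjusted p limit of 0.05, for each metal and time in hours. Bars stand for the 19 cytosolic synthetases, the 15 tested mitochondrial synthetases, and all 12341 tested genes, and the cytosolic bars for higher genes stand above those of all genes from 6 h with arsenic and from 3 h with mercury.

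Lower cytosolic genes were fewer. With arsenic, edgeR called 0 at 6 h (0.308% of all genes), 0 at 12 h (1.74%), and 2 at 24 h (FARSA and VARS1, 7.75%). FARSA with arsenic at 6 h lay at the threshold (LFC -0.33, edgeR adjusted p = 0.0545) and passed in DESeq2 (-0.32, 0.0229), with the stricter filter (0.0332), and with the compared groups fitted alone (0.0182). With mercury there were 0 at 3 h (0.154%), 1 at 6 h (2.99%), 1 at 12 h (7.16%), and 5 of 19 at 24 h (FARSA, FARSB, QARS1, RARS1, and VARS1), against 13.9% of all genes. With cadmium, FARSA alone was lower at 6 h (0.446%), a call lost in 3 of 6 fits that left out a library (adjusted p = 0.127 without cadmium replicate 2), and 0 genes at 12 and 24 h, where 2.99% and 0.632% of all genes were lower. Median log2 fold changes (LFC) of the 19 cytosolic genes were 0.32 at 12 h and 0.54 at 24 h with arsenic, 0.37, 0.47, and 0.52 at 6, 12, and 24 h with mercury, and 0.01 and 0.13 at 12 and 24 h with cadmium. The medians of all tested genes in these comparisons lay between -0.02 and 0.00. Those of the mitochondrial genes were -0.03 and -0.19 with arsenic, -0.09, -0.18, and -0.27 with mercury, and -0.11 and -0.09 with cadmium.

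**Figure D2:**
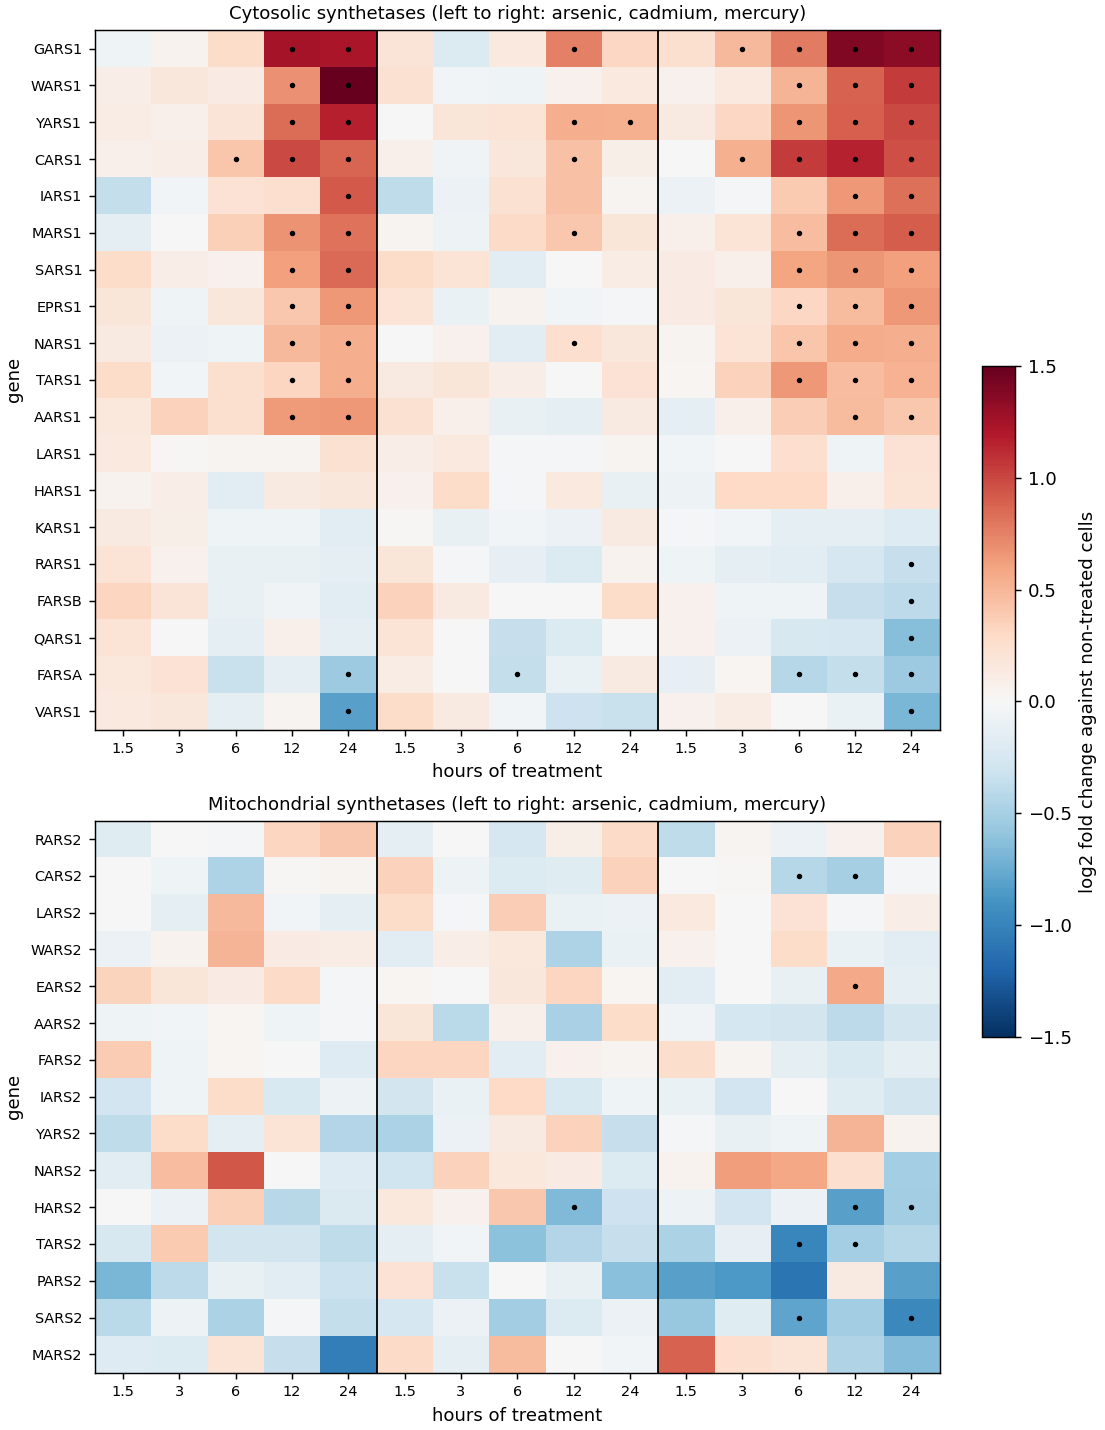
Log2 fold change of each tested synthetase gene against the time-matched non-treated cells, with cytosolic and mitochondrial genes in separate panels and hours of treatment along the columns for arsenic, cadmium, and mercury. In the cytosolic panel, 11 genes rise together at 24 h with arsenic and mercury, up to 1.50 for WARS1, while FARSA and VARS1 fall.

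GARS1 (chr7:30580533-30634033, plus strand, GRCh38), whose transcripts give both the cytosolic and the mitochondrial glycine enzyme, was among the first members to move. At 3 h it stood at 111, 108, and 103 CPM in non-treated libraries and at 134, 155, and 161 CPM with mercury. All 3 mercury libraries were above all non-treated ones, and the LFC was 0.49 ± 0.10 (SE, n = 3 per group, edgeR adjusted p = 0.00213). At 24 h, GARS1 libraries gave 121, 96.2, and 103 CPM when non-treated, 249, 245, and 254 for arsenic, 123, 135, and 140 for cadmium, and 254, 279, and 278 for mercury. The arsenic and mercury libraries were all more than 100 CPM above the highest non-treated library, and the cadmium libraries lay just above it. The LFC was 1.22 ± 0.10 with arsenic (edgeR adjusted p = 2.65e-15) and 1.34 ± 0.10 with mercury (2.37e-17). With cadmium it was 0.31 ± 0.10, which did not pass (adjusted p = 0.126), although GARS1 had been higher with cadmium at 12 h, at an LFC of 0.75 ± 0.11 (adjusted p = 2.25e-07). KARS1, the other gene with a cytosolic and a mitochondrial form, was one of the 3 cytosolic genes with the smallest changes. Its libraries at 24 h stood at 301, 311, and 251 CPM without treatment, 261, 261, and 251 with arsenic, 305, 291, and 350 with cadmium, and 235, 263, and 256 with mercury. These groups overlap, and the LFC of KARS1 was -0.16, 0.13, and -0.19 with arsenic, cadmium, and mercury (SE 0.09 each, edgeR adjusted p = 0.238, 0.582, and 0.0951). Without non-treated replicate 3, KARS1 passed with mercury (-0.27, adjusted p = 0.0277).

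WARS1 (chr14:100333790-100376805, minus strand) and YARS1 (chr1:32775237-32818031, minus strand) encode the related class I enzymes for tryptophan and tyrosine. WARS1, the cytosolic member with the lowest level, stood at 32.7, 35, and 23.7 CPM in non-treated libraries at 24 h, at 80.6, 83.9, and 94.0 with arsenic, at 35.9, 34.1, and 31.3 with cadmium, and at 63.6, 60.4, and 65.4 with mercury. Arsenic libraries were highest, mercury libraries were between, and cadmium libraries overlapped with the non-treated ones. The LFC was 1.50 ± 0.15 with arsenic (edgeR adjusted p = 6.11e-12), 1.05 ± 0.16 with mercury (1.73e-07), and 0.15 ± 0.16 with cadmium (0.785). YARS1 stood at 75.2, 63.9, and 66.7 CPM in non-treated libraries at 24 h, at 166, 139, and 160 with arsenic, at 98.0, 99.9, and 101 with cadmium, and at 143, 137, and 129 with mercury. No treated library of YARS1 overlapped with the non-treated ones. Its LFC was 1.17 ± 0.12 with arsenic (adjusted p = 4.83e-12), 0.53 ± 0.12 with cadmium (0.00461), and 0.99 ± 0.12 with mercury (5.78e-10). The cadmium call of YARS1 did not hold without non-treated replicate 2 (LFC 0.49, edgeR adjusted p = 0.0504), nor when the 6 libraries were fitted alone (0.0768).

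Among the other enzymes outside the complex, CARS1 (cysteine; chr11:3000922-3057613, minus strand) moved together with GARS1 at 3 h with mercury. Its libraries stood at 100, 87.1, and 83.1 CPM without treatment and at 131, 139, and 121 CPM with mercury (LFC 0.53 ± 0.11, edgeR adjusted p = 0.000643). At 6 h the mercury libraries were at 185, 221, and 181 CPM, against 95.5, 90.3, and 96.6 CPM without treatment (LFC 1.05 ± 0.10, adjusted p = 3.27e-12). The groups were apart at both times. At 24 h, CARS1 stood at 117, 142, and 102 CPM in non-treated libraries, at 217, 214, and 227 with arsenic, at 119, 119, and 147 with cadmium, and at 227, 244, and 235 with mercury. The LFC was 0.87 ± 0.10 with arsenic (adjusted p = 4.41e-10), 0.97 ± 0.10 with mercury (5.22e-12), and 0.09 ± 0.10 with cadmium (0.810), where the libraries overlapped with the non-treated ones. With cadmium at 12 h the LFC was 0.44 ± 0.11 (edgeR adjusted p = 0.00288). That call was lost without cadmium replicate 3 (LFC 0.37, edgeR adjusted p = 0.0546) and without non-treated replicate 2 (0.35, 0.0521).

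SARS1 (serine; chr1:109213918-109238182, plus strand) stood at 178, 205, and 141 CPM in non-treated libraries at 24 h, at 317, 345, and 283 with arsenic, at 184, 162, and 219 with cadmium, and at 252, 277, and 273 with mercury. Arsenic and mercury libraries were above every non-treated library, and cadmium libraries overlapped with them. The LFC was 0.85 ± 0.11 with arsenic (edgeR adjusted p = 9.74e-09), 0.62 ± 0.11 with mercury (1.03e-05), and 0.11 ± 0.11 with cadmium (0.785). AARS1 (alanine), NARS1 (asparagine), and TARS1 (threonine), which were singled out after their values were seen, rose at 24 h as well, by LFCs of 0.65, 0.54, and 0.54 for arsenic and of 0.40, 0.54, and 0.52 for mercury. The mercury call of AARS1 was lost without mercury replicate 2 (LFC 0.36, edgeR adjusted p = 0.0784). HARS1 (histidine), 1 of the 3 cytosolic genes with the smallest changes, stood at 78.0, 86.4, and 78.5 CPM without treatment at 24 h, 99.7, 89.7, and 83.6 with arsenic, 69.8, 91.9, and 63.2 with cadmium, and 86.2, 92.7, and 99.5 with mercury. Treated and non-treated libraries of HARS1 overlapped, and its LFC was 0.17, -0.11, and 0.20 with arsenic, cadmium, and mercury (SE 0.11 each, edgeR adjusted p = 0.364, 0.789, and 0.202).

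VARS1 (valine; chr6:31777518-31795752, minus strand) fell at 24 h. Its level was 94.8, 91.6, and 79.1 CPM in non-treated libraries at 24 h, 44.8, 48.0, and 57.1 with arsenic, 64.3, 63.0, and 85.2 with cadmium, and 59.5, 49.9, and 56.2 with mercury. Arsenic and mercury libraries were below every non-treated library. The LFC was -0.82 ± 0.14 with arsenic (edgeR adjusted p = 4.34e-06), -0.68 ± 0.14 with mercury (5.63e-05), and -0.33 ± 0.13 with cadmium (0.226). At 12 h, VARS1 libraries stood at 72.4, 78.7, and 72.3 CPM without treatment and at 79.0, 77.9, and 72.9 with arsenic, so that both groups overlapped (LFC 0.04 ± 0.13, edgeR adjusted p = 0.935), and the non-treated libraries themselves were lower than at 24 h. FARSA and FARSB, the alpha and beta subunits of the phenylalanine enzyme, were looked at after their values were seen. FARSA stood at 362, 385, and 324 CPM without treatment at 24 h, 227, 267, and 240 with arsenic, 358, 364, and 451 with cadmium, and 234, 240, and 256 with mercury. It fell by 0.55 on the log2 scale with arsenic (edgeR adjusted p = 7.28e-06) and by 0.55 with mercury (2.33e-06), with no overlap of libraries, and its LFC with cadmium was 0.13 (0.613). The LFC of FARSB was -0.39 ± 0.14 with mercury (edgeR adjusted p = 0.0253), a call lost in 4 of 6 fits that left out a library (adjusted p = 0.257 without non-treated replicate 1), and -0.16 ± 0.14 with arsenic (0.487).

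**Figure D3:**
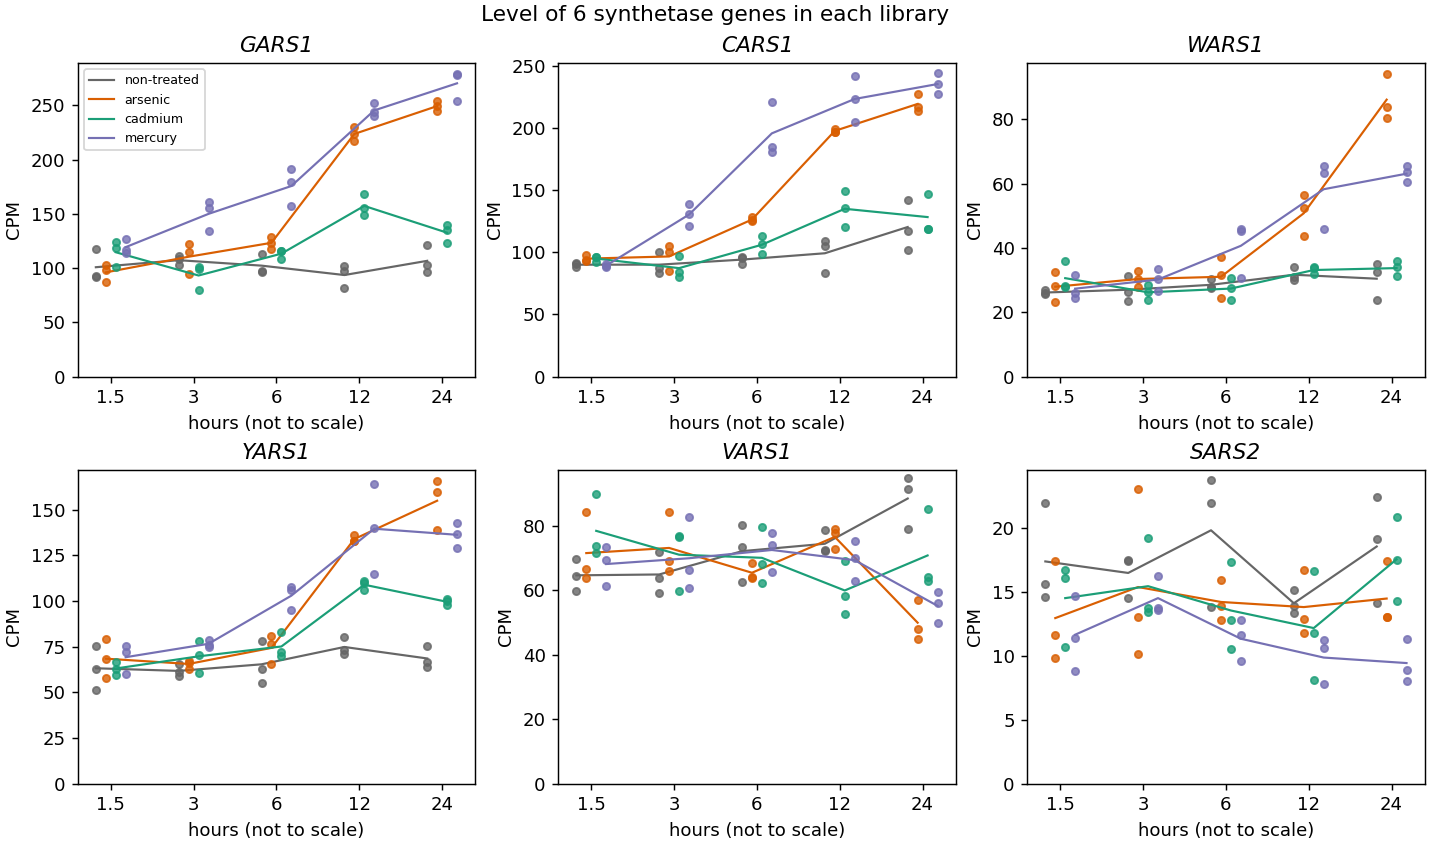
Level in CPM of 6 synthetase genes in each library against hours of treatment (not to scale), with points for libraries and lines through the mean of 3 libraries of non-treated, arsenic, cadmium, and mercury cells. GARS1, CARS1, WARS1, and YARS1 climb with arsenic and mercury, whereas VARS1 drops at 24 h (mean 50 CPM with arsenic against 88.5 without treatment) and the mitochondrial SARS2 does not exceed 23.7 CPM.

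Of the 7 genes whose enzymes belong to the multi-synthetase complex, EPRS1 (glutamate and proline), IARS1 (isoleucine), and MARS1 (methionine) rose with both arsenic and mercury at 24 h. Of all tested genes, 6.54% were higher with arsenic at 24 h and 13.9% with mercury. QARS1 (glutamine) and RARS1 (arginine) were lower with mercury, as were 13.9% of all genes, and KARS1 and LARS1 (leucine) did not pass the test. MARS1 (chr12:57475445-57517569, plus strand) stood at 163, 159, and 159 CPM without treatment at 24 h, 266, 262, and 316 with arsenic, 175, 190, and 180 with cadmium, and 294, 310, and 300 with mercury. All treated libraries were above the non-treated ones, with an LFC of 0.81 ± 0.10 for arsenic (edgeR adjusted p = 1.59e-09), 0.91 ± 0.10 for mercury (1.84e-11), and 0.18 ± 0.10 for cadmium, which did not pass (0.464). With cadmium at 12 h, MARS1 was at 211, 199, and 184 CPM against 147, 142, and 161 without treatment (LFC 0.40 ± 0.10, adjusted p = 0.00611). IARS1 (chr9:92210207-92293854, minus strand) stood at 66.4, 77.5, and 86.3 CPM without treatment at 24 h, 134, 152, and 150 with arsenic, 93.6, 105, and 33.4 with cadmium, and 142, 139, and 129 with mercury. Arsenic and mercury libraries were above all non-treated ones, and 1 cadmium library lay far below the other two. The LFC was 0.92 ± 0.17 with arsenic (edgeR adjusted p = 2.25e-05) and 0.83 ± 0.17 with mercury (6.49e-05). With cadmium it was 0.04 ± 0.17 (adjusted p = 0.962), and 0.38 without the low library, cadmium replicate 3 (0.173). That library also stood apart for some other members at 24 h. It was higher for FARSA (451 CPM against 358 and 364) and FARSB (173 against 119 and 123), and lower for IARS2 (52.1 against 89.8 and 87.9). For LARS1 it lay near the others (116 against 122 and 118). LARS1, 1 of the 3 with the smallest changes, stood at 122, 117, and 107 CPM without treatment at 24 h, 143, 130, and 136 with arsenic, 122, 118, and 116 with cadmium, and 132, 144, and 128 with mercury. Its arsenic and mercury libraries were all above the non-treated ones by a small margin, and the LFC was 0.23 and 0.22 (SE 0.10 each, edgeR adjusted p = 0.0997 and 0.0788) and 0.04 with cadmium (0.930). For mercury, LARS1 passed in DESeq2 (LFC 0.24, adjusted p = 0.0444).

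QARS1, picked after its values were seen, stood at 142, 132, and 108 CPM without treatment at 24 h, 108, 122, and 120 with arsenic, 121, 127, and 137 with cadmium, and 86.9, 77.5, and 81.6 with mercury. Only the mercury libraries lay apart from the non-treated ones (LFC -0.64 ± 0.11, edgeR adjusted p = 6.56e-06). The LFC was -0.13 with arsenic (0.496) and 0.01 with cadmium (0.991). RARS1 had an LFC of -0.34 for mercury (edgeR adjusted p = 0.00607) and of -0.15 for arsenic (0.344), and EPRS1 one of 0.65 with each of these metals (adjusted p = 3.92e-09 with arsenic and 2.38e-09 with mercury). Outside the complex, 8 of 12 cytosolic genes were higher with arsenic at 24 h, against 6.54% of all genes, and 8 of 12 with mercury, against 13.9%. By structural class of the enzyme the counts were equal: with arsenic as with mercury at 24 h, 5 of 9 class I genes and 5 of 9 class II genes were higher, and EPRS1, which holds an enzyme of each class, was higher too.

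By promoter, the 6 genes whose window held TGATGCAA (AARS1, CARS1, IARS1, MARS1, NARS1, and TARS1) were all higher with arsenic at 24 h and with mercury at 12 and 24 h, with median LFCs of 0.73, 0.60, and 0.69, where 6.54%, 8.89%, and 13.9% of all tested genes were higher. Of the 10 cytosolic genes whose window lacked the letters TGATGNAA, 4 (EPRS1, GARS1, SARS1, and WARS1) were higher in each of these comparisons, and the median LFCs were 0.02, -0.03, and 0.01. All 6 genes of the first group were higher at 24 h with both metals, so lower genes could only fall in the second group. Those that were lower at 24 h and had a window were FARSA with both metals, and FARSB, QARS1, and RARS1 with mercury. Of all tested genes, 7.75% were lower with arsenic at 24 h and 13.9% with mercury. With cadmium at 12 h, 3 of the 6 and 1 of the 10 were higher (5.19% of all genes). YARS2, the mitochondrial gene with a match, was not called in any comparison (LFCs at 24 h of -0.44 upon arsenic, -0.35 upon cadmium, and 0.05 upon mercury treatment).

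With an LFC limit of 1 added, the members called were GARS1 with arsenic at 12 h (0.648% of all genes), GARS1, WARS1, and YARS1 with arsenic at 24 h (1.89%), CARS1 with mercury at 6 h (1.10%), CARS1 and GARS1 with mercury at 12 h (2.58%), and GARS1 and WARS1 with mercury at 24 h (4.85%).

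Mitochondrial synthetases showed few changes, and those that passed were mainly lower with mercury. With arsenic, 0 of 15 were called at any time, by edgeR or by DESeq2. At an unadjusted p under 0.05, 4 passed at 6 h and 3 at 24 h. Among all tested genes, 0.608% were higher and 0.308% lower with arsenic at 6 h. At 12 h these shares were 2.37% and 1.74%, and at 24 h 6.54% and 7.75%. With mercury, 3 of 15 were lower at 6 h (CARS2, SARS2, and TARS2, 2.99% of all genes), 3 at 12 h (CARS2, HARS2, and TARS2, 7.16%), and 2 at 24 h (HARS2 and SARS2), a share close to the 13.9% of all genes. EARS2 was higher with mercury at 12 h, when 8.89% of all genes were, and HARS2 was lower with cadmium at 12 h (2.99%). Their counts are low, and the standard error of a mitochondrial LFC at 24 h had a median of 0.21, against 0.10 for cytosolic genes, so that changes of the size seen in most cytosolic genes would often not be detectable in them.

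SARS2 (mitochondrial serine enzyme; chr19:38915266-38930763, minus strand) had the largest mean change at 24 h of those mitochondrial genes that averaged at least 20 counts. Its counts are less certain, as 65.5% of its last 400 exonic bases lie in another gene. SARS2 stood at 19.1, 22.4, and 14.1 CPM without treatment, 17.4, 13, and 13 with arsenic, 17.5, 14.3, and 20.8 with cadmium, and 11.3, 8.06, and 8.92 with mercury. The mercury libraries were below all non-treated ones, and the others overlapped with them. The LFC was -0.97 ± 0.27 with mercury (edgeR adjusted p = 0.00405), -0.36 ± 0.25 with arsenic (0.384), and -0.09 ± 0.25 with cadmium (0.941). TARS2 (threonine; chr1:150487414-150507602, plus strand) was at its lowest with mercury at 6 h, with 21.6, 19.5, and 21.9 CPM against 32.6, 52.6, and 38.8 without treatment, and these groups did not overlap (LFC -0.98 ± 0.18, edgeR adjusted p = 7.69e-05). With cadmium at 6 h the libraries were at 29.5, 25.8, and 25.6 CPM, also below the non-treated ones, at an LFC of -0.62 ± 0.18, at the threshold (edgeR adjusted p = 0.0565). It passed in DESeq2 (0.0316), with the stricter filter (0.0385), with the replicate number as a block (0.0487), and without non-treated replicate 1 (-0.74, 0.0295). By 24 h the TARS2 LFC was -0.38, -0.34, and -0.43 with arsenic, cadmium, and mercury (edgeR adjusted p = 0.160, 0.413, and 0.0644), and its mercury call at 12 h (-0.51, 0.0440) was lost in every fit that left out 1 of its 6 libraries (highest adjusted p 0.187 without mercury replicate 2).

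HARS2 (histidine; chr5:140691430-140699305, plus strand), whose start overlaps with that of HARS1 on the other strand, stood at 42.0, 35.2, and 37.5 CPM without treatment at 12 h, 24.7, 26.5, and 34.5 with arsenic, 24.0, 23.1, and 25.6 with cadmium, and 25.0, 20.4, and 20.2 with mercury. All treated libraries were below the non-treated ones. The LFC was -0.81 ± 0.18 with mercury (edgeR adjusted p = 0.000567), -0.66 ± 0.18 with cadmium (0.0114), and -0.42 ± 0.17 with arsenic (0.182). At 24 h the mercury LFC was -0.52 ± 0.18 (edgeR adjusted p = 0.0197), a call lost in 3 of 6 fits that left out a library (0.125 without mercury replicate 1). The cadmium call at 12 h was lost without cadmium replicate 2 or non-treated replicate 1 (LFC -0.58, edgeR adjusted p = 0.0788 without the latter). RARS2 (arginine; chr6:87513459-87590028, minus strand) was the mitochondrial gene with the highest LFC at 24 h with arsenic. Its libraries stood at 28.3, 38.7, and 21.6 CPM without treatment, 42.8, 38.5, and 36.5 with arsenic, 36.6, 38.9, and 32.3 with cadmium, and 31.8, 39.0, and 41.0 with mercury. One non-treated library reached into the treated range, and the LFC was 0.41, 0.29, and 0.34 (SE 0.17 each, edgeR adjusted p = 0.103, 0.514, and 0.146). Without that library, non-treated replicate 2, RARS2 passed with arsenic (LFC 0.65, edgeR adjusted p = 0.0165) and with mercury (0.57, 0.0229).

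NARS2 (asparagine; chr11:78435620-78575194, minus strand) was near the limit of detection, at 3.35, 7.69, and 7.79 CPM without treatment at 24 h, 7.02, 2.60, and 6.77 with arsenic, 5.45, 7.16, and 3.23 with cadmium, and 2.20, 6.51, and 4.30 with mercury. The groups overlapped, with an LFC of -0.19, -0.21, and -0.51 (SE 0.44 to 0.46, edgeR adjusted p = 0.830, 0.910, and 0.439), and a difference was not detectable at this depth. CARS2 (cysteine) and EARS2 (glutamate) were singled out after their values were seen. CARS2 had an LFC of -0.50 with mercury at 12 h (edgeR adjusted p = 0.00879) and -0.02 at 24 h (0.922), and its 12 h call was lost without non-treated replicate 1 or 3 (highest adjusted p 0.0732). The call of EARS2 at 12 h with mercury (LFC 0.57, edgeR adjusted p = 0.0490) was lost in 5 of 6 fits that left out a library (0.161 without mercury replicate 1) and with the replicate block (0.0522), as were those of SARS2 at 6 h in 5 of 6 (0.238 without non-treated replicate 1) and with the block (0.0542) and of CARS2 at 6 h in 6 of 6 (0.308 without the same library). The remaining 8 mitochondrial genes that were tested (AARS2, FARS2, IARS2, LARS2, MARS2, PARS2, WARS2, and YARS2) were not called at any time, although PARS2 passed with mercury at 6 h without mercury replicate 3 (-1.61, adjusted p = 0.0314) and YARS2 at 12 h without non-treated replicate 3 (0.74, 0.0451). At 24 h their LFCs lay between -1.04 (MARS2 with arsenic, SE 0.50, adjusted p = 0.163) and 0.28 (AARS2 with cadmium, SE 0.21, 0.658).

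For 12 amino acids, a single cytosolic member that serves no other amino acid and a mitochondrial member were both tested. These pairs can be set side by side. TARS3, a further threonine gene tested with the related lists, was not a member and was not paired. The LFC of the cytosolic gene was the higher in 11 of 12 pairs with arsenic at 24 h, in 9 with cadmium, and in 11 with mercury, and the median gap between both LFCs was 0.88, 0.20, and 0.97. At 12 h it was the higher in 11, 11, and 10 pairs, with gaps of 0.58, 0.38, and 0.88. The widest gap with arsenic at 24 h was that of MARS1 and MARS2 (0.81 and -1.04), where the low counts of MARS2 leave its own value imprecise (SE 0.50), and that of YARS1 and YARS2 (1.17 and -0.44) came next. With mercury it was that of SARS1 and SARS2 (0.62 and -0.97), which both passed the test in opposite directions. The counts of SARS2 are less certain, since 65.5% of its last 400 exonic bases lie in another gene. The exception among the 12 pairs with arsenic and mercury was arginine, in which the LFC of RARS1 was -0.15 and -0.34 and that of RARS2 0.41 and 0.34. Phenylalanine, whose cytosolic enzyme has 2 subunits, and glutamate and proline, which share EPRS1, were not counted as pairs. With arsenic at 24 h the LFC of FARSA was -0.55 and that of FARSB -0.16, against -0.19 for FARS2, and with mercury they were -0.55 and -0.39 against -0.14, so that FARSA lay below its mitochondrial counterpart, as RARS1 did. The LFC of EPRS1 was 0.65 with both metals, above those of EARS2 (-0.02 and -0.14) and PARS2 (-0.32 and -0.82). These are descriptions of each gene's own comparison, and no difference between the genes of a pair was tested.

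**Figure D4:**
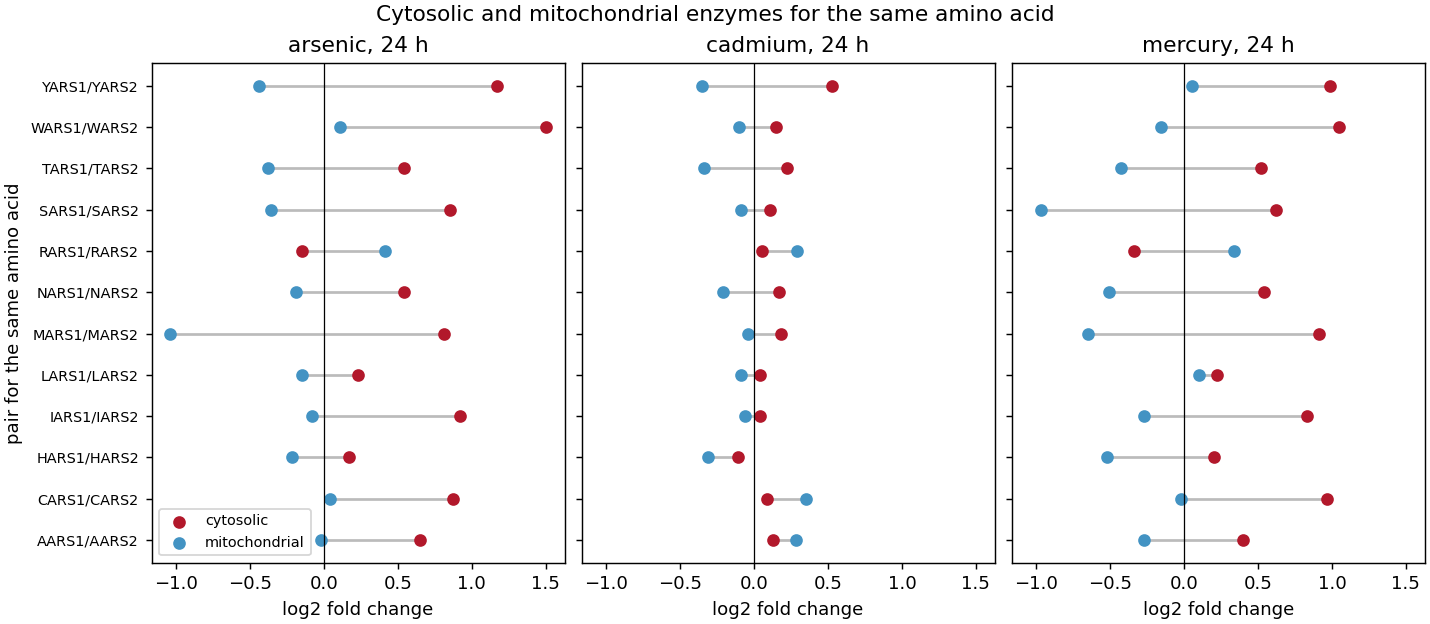
Log2 fold change at 24 h against non-treated cells of the cytosolic and the mitochondrial gene for the same amino acid, a pair on each line, for arsenic, cadmium, and mercury. With arsenic and mercury the cytosolic point lies to the right in 11 of the 12 pairs drawn, arginine being the exception, and with cadmium the points of most pairs lie close together (median gap 0.20).

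Whether the metals differ in their effect was tested by comparing treated libraries of the same time point directly, in 15 comparisons. At 24 h, arsenic and cadmium differed in 15 of 19 cytosolic genes, with 11 higher and 4 lower with arsenic, against 4.20% and 5.96% of all genes. The 11 were those that rose with arsenic, led by WARS1 (log2 difference 1.35, 95% interval 1.04 to 1.65, edgeR adjusted p = 2.47e-10) and GARS1 (0.92, 0.71 to 1.12, 1.22e-10), and the 4 were FARSA, FARSB, KARS1, and VARS1. Cadmium and mercury differed in 15 of 19 as well, with 10 lower and 5 higher with cadmium (10.3% and 9.70% of all genes), GARS1 lying lowest (-1.03, -1.23 to -0.83, 1.45e-12). The 5 that were higher were FARSA, FARSB, KARS1, QARS1, and RARS1. Some of these calls did not hold with a library left out. Without cadmium replicate 3, FARSB (adjusted p = 0.310), KARS1 (0.183), and VARS1 (0.161) no longer passed against arsenic, nor did KARS1 (0.0770), RARS1 (0.0679), and TARS1 (0.0819) against mercury. Arsenic against cadmium was further lost for TARS1 without arsenic replicate 1 (0.189) and for AARS1 without cadmium replicate 1 (0.0611).

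Arsenic and mercury differed at 24 h in 2 of 19 cytosolic genes, both higher with arsenic (4.59% of all genes): QARS1 (log2 difference 0.51, 95% interval 0.29 to 0.74, edgeR adjusted p = 0.000853) and WARS1 (0.45, 0.16 to 0.74, 0.0325). The WARS1 call was lost in 5 of 6 fits that left out a library (adjusted p = 0.152 without arsenic replicate 3). For the other 17 genes, 95% intervals of the difference lay between -0.42 and 0.51, so that differences of that size remain possible. At 12 h, 0 of 19 differed in edgeR (2.42% of all genes higher and 4.42% lower with arsenic), with intervals between -0.73 and 0.57, and 4 had an unadjusted p under 0.05. QARS1 was near the threshold (0.33, edgeR adjusted p = 0.0532) and passed in DESeq2 (0.32, 0.0343) and with the stricter filter (0.0359), while IARS1 passed when the compared groups were fitted alone (-0.40, 0.0221). Without arsenic replicate 3, QARS1 (0.00275), IARS1 (0.0380), and FARSA (0.0449) passed. At earlier times, 4 genes (CARS1, GARS1, NARS1, and TARS1) were lower with arsenic than with mercury at 3 h (1.67% of all genes), and 7 (CARS1, GARS1, HARS1, NARS1, SARS1, TARS1, and YARS1) at 6 h (3.07%). The calls at 3 h were lost for CARS1 without arsenic replicate 1 (adjusted p = 0.128), GARS1 without arsenic replicate 2 (0.157), NARS1 without mercury replicate 3 (0.224), and TARS1 without arsenic replicate 3 (0.284), and 0 of the 4 remained when the compared groups were fitted alone (0.0897, 0.0922, 0.216, and 0.0983 in the same order). At 6 h, CARS1, GARS1, NARS1, and SARS1 held in every such fit, with CARS1 at a log2 difference of -0.63 (-0.83 to -0.43, edgeR adjusted p = 8.99e-06), whereas HARS1 (0.0645) and TARS1 (0.109) were lost without mercury replicate 2 and YARS1 without arsenic replicate 3 (0.106).

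Cadmium against mercury gave 2 lower genes (CARS1 and GARS1) at 3 h (1.29% of all genes), 8 at 6 h (2.14%), and 9 at 12 h (1.81%). Of these, AARS1 (adjusted p = 0.496), WARS1 (0.192), and YARS1 (0.0917) at 6 h were lost without mercury replicate 2, and AARS1 (0.0634) and NARS1 (0.0539) at 12 h without mercury replicates 3 and 1. Arsenic against cadmium gave 8 higher and 0 lower at 12 h (1.90% and 3.87% of all genes), of which NARS1 (0.157) and WARS1 (0.0803) were lost without arsenic replicate 2 and TARS1 (0.203) without cadmium replicate 1. It gave 0 at 1.5 h (0% of all genes), 0 at 3 h (0.0162% higher and 0.122% lower), and 0 at 6 h (0.17% and 1.01%) in both edgeR and DESeq2, where 1, 4, and 2 cytosolic genes had an unadjusted p under 0.05. At 1.5 h, 0 members differed from mercury with arsenic (0.818% of all genes higher and 0.737% lower) or with cadmium (0.122% and 0.535%) in either tool, with 6 and 4 cytosolic genes at an unadjusted p under 0.05. Those zeros were not the same in every setting, since FARSA (0.0377), MARS1 (0.0206), and TARS1 (0.0231) passed against mercury without arsenic replicate 3, and AARS1 (0.0293) and RARS1 (0.0371) for cadmium when the compared groups were fitted alone. Of the mitochondrial genes, 3 differed between metals, each as 1 of 15 in its comparison. TARS2 was higher with arsenic than with mercury at 6 h (0.71, edgeR adjusted p = 0.0102, and 0.102 without arsenic replicate 1), as were 1.41% of all genes. CARS2 was likewise higher at 12 h (0.52, 0.0139, and 0.121 without arsenic replicate 2), as were 2.42% of all genes. SARS2 was higher with cadmium than with mercury at 24 h (0.88, 0.0129, and 0.0791 without mercury replicate 2). There, 9.70% of all genes were higher, a share that 1 of 15 does not exceed.

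**Figure D5:**
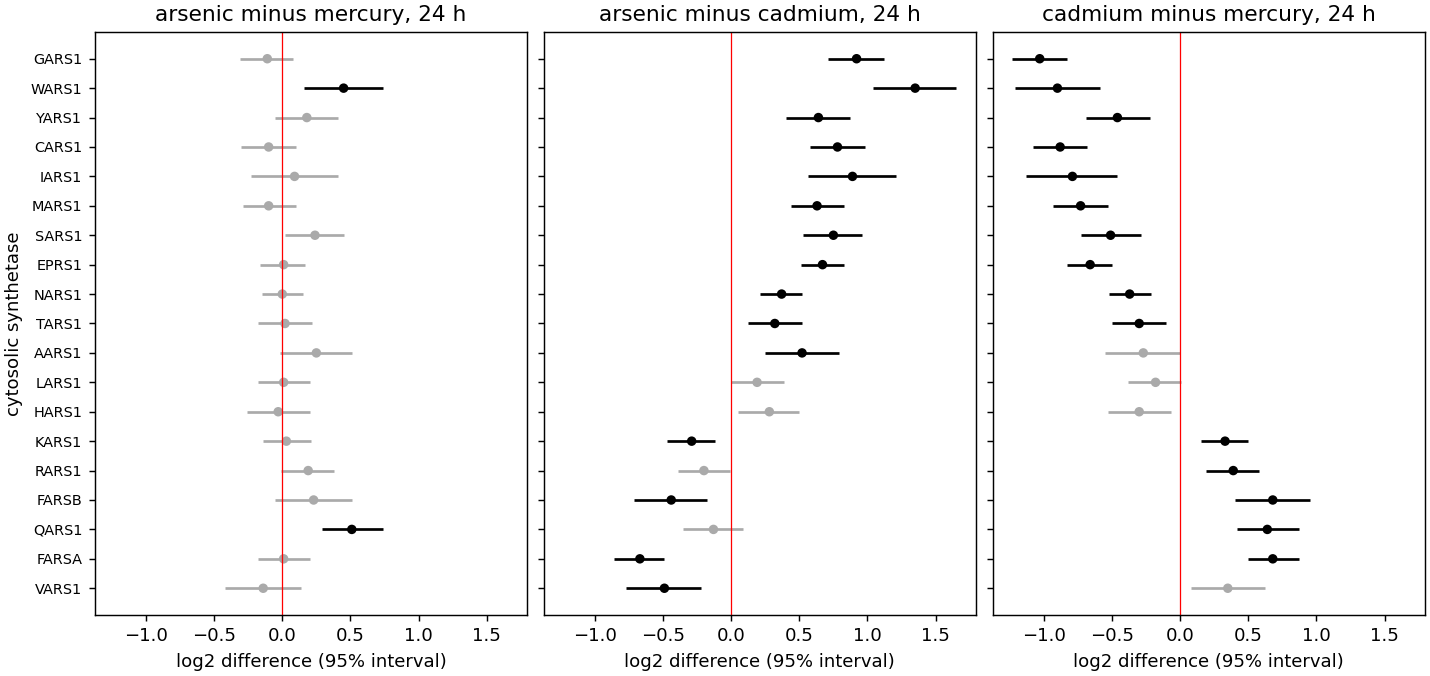
Log2 difference at 24 h between a pair of metals for each of the 19 cytosolic synthetase genes, with its 95% interval, for arsenic against cadmium, arsenic against mercury, and cadmium against mercury. Intervals of arsenic against mercury mostly cover 0, whereas WARS1 (1.35) and GARS1 (0.92) lie far to the right for arsenic against cadmium.

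A further test asked whether the effect of a metal differed between 24 h and 12 h, each against its own non-treated libraries. With arsenic, the effect on WARS1 was larger at 24 h than at 12 h (difference of LFCs 0.82 ± 0.22, edgeR adjusted p = 0.0341, against 0.673% of all genes called), and that on VARS1 turned lower (-0.86 ± 0.19, adjusted p = 0.00755, 0.899%). The WARS1 call was lost in 8 of 12 fits that left out a library (adjusted p = 0.0803 without non-treated replicate 3 of 24 h), and the VARS1 call held in all 12. With cadmium and mercury, 0 members were called by edgeR, and 0 cytosolic ones by DESeq2. Few genes were called at all: 0.081% higher and 0.3% lower with cadmium, and 0.3% and 0.324% with mercury. At an unadjusted p under 0.05, 2 cytosolic genes passed with cadmium and 3 with mercury. The cadmium effect on GARS1, with an LFC of 0.75 at 12 h and 0.31 at 24 h, differed by -0.44 ± 0.15, with an unadjusted p of 0.00442 and an adjusted p of 0.224.

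Of the genes that work beside the synthetases, few passed the test. Among 11 scaffolds of the complex and charging partners, EEF1E1, a scaffold of the complex, was higher with cadmium at 12 h (LFC 0.53, edgeR adjusted p = 0.0412, 5.19% of all genes higher) and with mercury at 24 h (0.55, 0.0120). AIMP2, another scaffold, was lower with mercury at 12 h (-0.41, 0.0258) and 24 h (-0.53, 0.00177), DTD1 was lower at 24 h with mercury (-0.36, 0.0269), and with arsenic edgeR called 0 of the 11. For mercury at 24 h these are 1 of 11 higher and 2 of 11 lower, against 13.9% each of all genes. With mercury at 12 h, 7.16% of all genes were lower, and with arsenic at 24 h, 6.54% were higher and 7.75% lower. Of 21 tested genes of tRNA processing and export, 4 were higher with arsenic at 24 h (XPOT, ELAC1, TSEN15, and SSB), against 6.54% of all genes. ELAC1 was near the limit of detection, with a 24 h mean of 1.22 CPM without treatment (lowest library 0) and 6.01 CPM with arsenic. With mercury, 3 were higher (XPOT, TSEN15, and NSUN2) and 1 lower (HSD17B10) at 12 h, against 8.89% and 7.16%, and 2 were higher (XPOT and TSEN15) and 1 lower (HSD17B10) at 24 h, both below the 13.9% of all genes. With cadmium, NSUN2, a tRNA methyltransferase, was lower at 24 h (LFC -0.54, edgeR adjusted p = 0.000563, 0.632% of all genes lower). XPOT, which carries tRNA out of the nucleus, had a mean at 24 h of 29.8 ± 8.31 CPM without treatment, 53.8 ± 10.4 CPM for arsenic, 32.0 ± 5.39 CPM for cadmium, and 72.6 ± 17.7 CPM for mercury (SD, n = 3 each). XPOT passed with arsenic (LFC 0.85, edgeR adjusted p = 0.0196) and mercury (1.28, 8.68e-05) but not with cadmium (0.11, 0.934). Of 9 tested cytosolic elongation and release factors, EIF5A was lower with arsenic at 24 h (-0.30, 0.0236), where 7.75% of all genes were lower. The release factor ETF1 was higher with mercury at 24 h (0.39, 0.000578), where 13.9% of all genes were higher. EEF1A1, which brings charged tRNA to the ribosome, had 24 h LFCs of 0.38, 0.21, and 0.29 with arsenic, cadmium, and mercury (edgeR adjusted p = 0.101, 0.653, and 0.166). Of 10 tested mitochondrial translation factors, MTRF1 was higher (1.26, 0.0115) and MRRF lower (-0.66, 0.00650) with mercury at 24 h. That is 1 of 10 in each direction, near the 13.9% of all genes higher and 13.9% lower. MTIF2 and MTIF3 were lower with cadmium at 12 h (-0.33 and -0.61, edgeR adjusted p = 0.0390 and 0.0330), where 2.99% of all genes were lower. AIMP2, DTD1, HSD17B10, NSUN2, SSB, TSEN15, EIF5A, MTIF2, and MTIF3 were named after their values were seen. Calls of these related genes come from the main edgeR fit only and were not checked with DESeq2 or with a library left out.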

How the data were processed

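RNA of 60 libraries (3 per group) was sequenced from the 3′ end with the QuantSeq FWD protocol. The authors mapped reads to GRCh38 with STAR 2.7.9a, counted them by strand on GENCODE exons with GenomicAlignments in Union mode, and deposited whole-number counts per gene without normalization. All 60 columns were used, and the 92 spike-in entries had 0 counts.

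Counts were normalized by TMM (factors 0.934 to 1.03) and tested with the quasi-likelihood test of edgeR 4.0.16 (limma 3.58.1, R 4.3.3) in 1 model with a coefficient per metal and time point. filterByExpr (minimum count 10, total at least 15) left 12341 of the 28620 genes with at least 1 count, with a common biological coefficient of variation of 0.12. The comparisons were 15 of a metal with non-treated cells, 15 between metals, and 3 of 24 h with 12 h, with Benjamini-Hochberg adjustment within each. Replicates correlated at 0.958 to 0.977 across genes and differed by more than sampling noise (lowest chi-square per degree of freedom 1.99).

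The members and gene lists were chosen with earlier results of these data known. Members given in full were the 8 cytosolic and 5 mitochondrial ones with the largest mean absolute LFC over the metals at 24 h and a mean of at least 20 counts, and the 3 cytosolic ones with the smallest. AARS1, EPRS1, NARS1, TARS1, FARSA, FARSB, QARS1, RARS1, CARS2, and EARS2 were added after their values were seen. Of each related list, the 3 with the largest absolute LFC at 24 h were picked, and others were named where called. Of those picked, SEPSECS, TARS3, PRORP, EEFSEC, and GFM2 were not called against non-treated cells at any time and are not described above. Their largest absolute LFCs at 24 h were 0.78, 0.65, 0.57, 0.36, and 0.79. Coordinates are from the GENCODE annotation of GRCh38, and promoter windows from RefSeq. Alternatives were RLE size factors, DESeq2 1.42.0, no filter, a filter of 50 counts in 3 libraries, the replicate number as a block, fitting the compared groups alone, and leaving out each library. Aspartate synthetases were not analysed here.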

Additional observations from a re-analysis of the deposited data

Results flagged for a closer look

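The effect of arsenic at 24 h differed from that at 12 h in 2 cytosolic synthetases, by a test of the difference itself. It was higher in 1, against 0.673% of all tested genes, and lower in 1, against 0.899%. For VARS1 the difference of LFCs was -0.86 (SE 0.19, edgeR adjusted p = 0.00755), with libraries of 79.0, 77.9, and 72.9 CPM at 12 h and 44.8, 48.0, and 57.1 CPM at 24 h, against 72.4, 78.7, and 72.3 CPM and 94.8, 91.6, and 79.1 CPM without treatment. Non-treated libraries were therefore also higher at 24 h than at 12 h, and both shifts enter the difference. For WARS1 it was 0.82 (SE 0.22, edgeR adjusted p = 0.0341), with 52.4, 56.4, and 43.7 CPM at 12 h and 80.6, 83.9, and 94.0 CPM at 24 h, against 30.2, 30.9, and 34.0 CPM and 32.7, 35, and 23.7 CPM without treatment. The WARS1 call was lost in 8 of 12 fits that left out a library, whereas that of VARS1 held in every such fit. It was also lost for WARS1 with no filter (edgeR adjusted p = 0.0682) and with only the groups compared (0.0782).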

How the results depend on the processing

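All 19 cytosolic and 15 mitochondrial counts were recomputed under each alternative, and 0 values of the named members at 12 and 24 h reversed (1122 kept their call, 7 came to pass the threshold, and 17 no longer passed). With RLE size factors, no count moved by over 1.5 times. Cytosolic genes higher with arsenic at 6 h (1) became 0 with no filter, and 2 with the stricter filter, with only the groups compared, and with DESeq2. Those higher with cadmium at 24 h (1) became 0 with only the groups compared. Mitochondrial genes lower with cadmium (1 over all times) became 2 with the stricter filter, with the replicate block, and with DESeq2. Those higher with mercury (1) became 0 with no filter and 0 with the replicate block, and those lower with mercury (8) became 4 with no filter. Cytosolic genes differing between arsenic and mercury at 24 h (2) became 1 with no filter. The effect of arsenic at 24 h over that at 12 h gave 0 higher genes (from 1) with only the groups compared and 2 lower genes (from 1) with DESeq2. The causes were not tested.

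Leaving out 1 library gave the following ranges for cytosolic genes higher: 0 to 1 with arsenic at 1.5 h, 0 to 0 at 6 h, 9 to 10 at 12 h, and 11 to 11 at 24 h; 3 to 5 with cadmium at 12 h and 0 to 1 at 24 h; 2 to 2, 7 to 10, 10 to 11, and 10 to 11 with mercury at 3, 6, 12, and 24 h. Summed over times, cytosolic genes lower ranged over 2 to 3 with arsenic, 0 to 1 with cadmium, and 6 to 8 with mercury. Mitochondrial genes higher ranged over 0 to 1 with arsenic and 0 to 2 with mercury, and those lower over 0 to 2 with cadmium and 6 to 8 with mercury. Differences between metals at 24 h ranged over 11 to 15 for arsenic and cadmium, 1 to 2 for arsenic and mercury, and 12 to 17 for cadmium and mercury. The arsenic effect at 24 h over 12 h ranged over 0 to 1 higher and 1 to 2 lower genes.

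Treated and non-treated libraries of the same replicate number did not deviate together (correlation -0.278 to 0.0837 over 45 pairs, 0 over 0.1), so samples were not paired by number, and the replicate block changed the call of 0 of 96 values of named members at 12 and 24 h against non-treated cells. In other comparisons or members, the block lost SARS2 with mercury at 6 h (adjusted p = 0.0542) and EARS2 at 12 h (0.0522), and gained TARS2 with cadmium at 6 h (0.0487) and HARS1 for cadmium against mercury at 24 h (0.0476). Genes lower with arsenic than with mercury at 3 h went from 4 to 0 with only the groups compared. Depth limits the mitochondrial genes most, with a median SE of 0.21 at 24 h.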
